A study of Phyllostachys edulis with 2 samples.

Results

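The undefined cells described here are root protoplasts rich in transcripts of PH02Gene06911 and PH02Gene29817, the genes of the 60S ribosomal proteins L15-2 and L5-1, in which no transcript of the PLT1 ortholog was counted. They were chosen cell by cell from unique molecular identifiers (UMIs, each marking 1 captured transcript) among cells with more than 500 genes and at least 4000 UMIs. PH02Gene06911 and PH02Gene29817 each had to reach 400 CPM, which is UMIs of the gene per 1000000 UMIs of the cell, no UMI of PH02Gene42801, the PLT1 ortholog, was allowed, and PH02Gene08613, PH02Gene04325 and PH02Gene00514 had to stay under 350, 300 and 400 CPM. Of 7093 cells deep enough to be judged, 530 met all 6 conditions. They were 263 of 3423 cells in replicate 1 (7.68%, exact Clopper-Pearson 95% interval 6.81 to 8.63) and 267 of 3670 cells in replicate 2 (7.28%, 6.46 to 8.16), and these intervals cover counting error only. The 6 genes chose the cells, so their values are a description and were not tested. The study grouped its cells into 13 clusters and left Clusters 3 and 4 without a cell type, and PH02Gene06911 and PH02Gene29817 were markers of Cluster 3.

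The cells came from basal root tips about 2 cm long of moso bamboo (Phyllostachys edulis), and were released as protoplasts by 3 h of enzyme digestion. The plants were 6 to 8 weeks old. The labels give both libraries the same tissue and treatment, with no second genotype and no control group. The study calls them biological replicates and nothing in the labels says which plants they came from, so p-values measure the spread between these 2 libraries.

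Replicate 1 held 7668 barcodes with 36419750 UMIs and replicate 2 held 7656 barcodes with 42126823 UMIs. The minimum of 4000 UMIs left 44.6% and 47.9% of the barcodes, and 15 barcodes occurred in both libraries. The undefined cells had a median of 8008 and 9168 UMIs, the other cells 7957 and 8735. Doublets were not removed and no doublet caller was run.

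Ribosomal proteins L15 and L5 are parts of the large ribosomal subunit, and L5 also carries the 5S ribosomal RNA into it. Growing root cells build many ribosomes, so transcripts of such proteins tend to be plentiful where cells divide and enlarge, and they mark no cell type by themselves. PLT1 and its relatives PLT2 and BBM are AP2-type transcription factors that in Arabidopsis keep the stem cells and dividing cells of the root tip in place. In grasses the root tip is wrapped in a root cap and an epidermis around a thick ground tissue, the cortex and endodermis.

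The in situ hybridization probes of the study are shown for the genes that define these cells and for 1 marker of Cluster 4, because they are the stretches through which those transcripts were located in tissue. Each is antisense, 5′ to 3′, and is the exact reverse complement of its sense control. The capitals in the PH02Gene29817 probe read TGA, a stop codon, at the end of the sense strand, and those in the PH02Gene35698 probe read ATG, a start codon, at its beginning.
PH02Gene06911: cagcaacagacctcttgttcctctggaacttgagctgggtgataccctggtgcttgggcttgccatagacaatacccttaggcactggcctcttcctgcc
PH02Gene29817: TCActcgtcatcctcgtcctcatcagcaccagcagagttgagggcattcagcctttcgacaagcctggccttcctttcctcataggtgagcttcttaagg
PH02Gene35698: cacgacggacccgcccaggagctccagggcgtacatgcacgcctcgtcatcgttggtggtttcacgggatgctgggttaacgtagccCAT
The PH02Gene06911 and PH02Gene29817 probes are 100 bases long with 55% and 53% G or C, and the PH02Gene35698 probe is 90 bases long with 62.2%. Whether these triplets are the stop and start of the coding sequences was not checked, since no genome was used here.

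PH02Gene06911 stood at 902 and 931 CPM in the summed UMIs of the undefined cells and at 158 and 165 CPM in all other cells. Single undefined cells ranged from 402 to 3272 CPM around a median of 793 in replicate 1, and from 401 to 3883 around 804 in replicate 2. In counts this was a median of 7 UMIs per cell in each replicate, from 2 to 31 and from 2 to 35. The limit cut through a continuous range of levels, since 48 and 41 undefined cells lay between 400 and 500 CPM and 39 and 53 cells with 300 to 400 CPM were kept out by this condition alone. PH02Gene29817 reached 1277 and 1203 CPM against 358 and 363 CPM in all other cells, and single undefined cells spanned 406 to 4213 and 406 to 3547 CPM. Here 23 and 17 undefined cells lay within 100 CPM above the limit and 10 and 15 cells just under it were kept out by it alone.

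**Figure D1:**
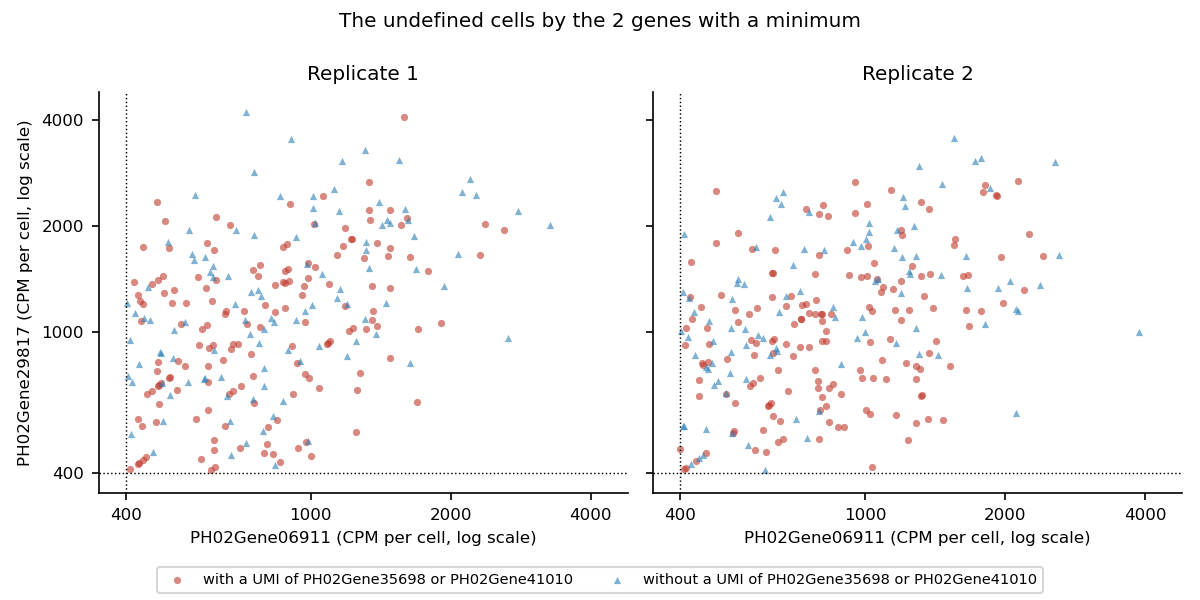
Each point is 1 undefined cell, placed by its CPM of PH02Gene06911 (horizontal, log scale) and of PH02Gene29817 (vertical, log scale), with dotted lines at the 400 CPM minimum of each gene and colours for cells with or without a UMI of PH02Gene35698 or PH02Gene41010 after thinning to 4000 UMIs. The cells start at the limits and thin out towards the highest values of 3272 and 3883 CPM of PH02Gene06911, and both colours occur over most of the range, while the highest cell of each replicate carried neither transcript.

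The genes with an upper limit were scarce in these cells, as the conditions ask. PH02Gene04325, a marker of the initial cells of Cluster 9, had no UMI in 254 of 263 and 247 of 267 undefined cells (96.6% and 92.5%), and its highest values were 124 and 283 CPM, under the limit of 300. PH02Gene00514, which encodes the water channel PIP1-1, had no UMI in 162 and 147 cells and at most 381 and 386 CPM. PH02Gene08613, a marker of the epidermis of Cluster 6, was at 0 in 122 and 108 cells (46.4% and 40.4%) and had a median of 84.0 and 97.9 CPM. Its values filled the range up to its limit, with 29 and 35 undefined cells within 25% below 350 CPM and 20 and 25 cells within 25% above it that were kept out by this gene alone.

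The cluster markers that the conditions did not use were read beside the label. PH02Gene23345 is a Cluster 3 marker for a fusion of ubiquitin with the ribosomal protein L40. In the summed UMIs it stood at 263 and 299 CPM in the undefined cells and at 103 and 112 CPM in all other cells. In single undefined cells it ranged from 0 to 1824 and from 0 to 1501 CPM. Its log2 fold change was 1.18 (SE 0.09, adjusted p = 1e-13). Of the Cluster 4 markers, PH02Gene35698 was higher in the undefined cells (298 and 367 against 207 and 203 CPM, log2 fold change 0.48, SE 0.09, adjusted p = 2.6e-05). PH02Gene41010 was at 318 and 282 against 263 and 288 CPM, and its fold change of -0.10 (SE 0.08, adjusted p = 0.40) turned to 0.12 (adjusted p = 0.27) when libraries were scaled by their totals alone. Against all other cells the Cluster 3 marker outside the conditions and 1 of the 2 Cluster 4 markers were thus higher. These markers were found on the same cells, and the conditions ask for PH02Gene06911 and PH02Gene29817, which also mark Cluster 3. How far the rises follow from that choice was not tested, so they do not check the label independently. Against the cells kept out for PH02Gene08613 alone, PH02Gene23345 did not pass (147 and 226 CPM there, 0.48, SE 0.16, adjusted p = 0.12). All fold changes are log2 values of undefined minus compared cells from edgeR's quasi-likelihood test on UMIs summed per group and replicate, with p-values adjusted over all genes by Benjamini-Hochberg, and a gene is called at an adjusted p under 0.05.

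The share of cells with a UMI was read after every cell had been thinned to 4000 UMIs. PH02Gene23345 was then seen in 54.8% (48.5 to 60.9, exact Clopper-Pearson 95%) and 62.5% (56.4 to 68.4) of undefined cells and in 26.1% and 26.6% of other cells. Without thinning the same shares were 73.4% and 79.0% against 38.0% and 41.6%. PH02Gene35698 was seen in 44.5% (38.4 to 50.7) and 42.7% (36.7 to 48.9) of undefined cells against 26.8% and 28.1%. No cell type known to lack these transcripts was set apart, so how much of the shares is background was not tested. PH02Gene41010 was seen in 35.7% (29.9 to 41.9) and 41.9% (36.0 to 48.1) against 33.1% and 37.3%, which lie inside these intervals. Before thinning, the undefined cells had 57.0% and 53.6% with PH02Gene35698 and 44.9% and 55.8% with PH02Gene41010.

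The 2 Cluster 4 markers were spread unevenly within the undefined cells. After thinning, 55 and 59 undefined cells held both transcripts, 62 and 55 held PH02Gene35698 alone, 39 and 53 held PH02Gene41010 alone, and 107 and 100 held neither. Independent detection would give 41.8 and 47.8 cells with both. The rank correlation of their counts over cells was 0.178 and 0.158 (Spearman, over 263 and 267 cells that share a library) and 0.060 and 0.051 over the other cells, which are weak values in sparse counts. Single cells held up to 2622 and 3286 CPM of PH02Gene35698, with a median of 124 and 97.0, and up to 7916 and 3820 CPM of PH02Gene41010, with a median of 0 and 84.3.

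Against all other cells the undefined cells differed in 8695 of 24912 genes tested (34.9%), of which 3867 (15.5%) were higher and 4828 (19.4%) lower. Differences of at least 2-fold were found for 1453 higher (5.83%) and 2159 lower genes (8.67%). The conditions rest on genes that marked clusters of these same cells, so genes that follow those clusters differ by the choice of cells and the counts describe how the cells were split. Scaled by library totals alone the median of all genes lay 0.213 higher and the split turned to 6463 higher and 3278 lower, so changes are given relative to the median gene unless said otherwise. The count fell to 5493 when cells were thinned to 4000 UMIs after the choice, to 5657 with DESeq2 and to between 6282 and 6757 when 1 of the 4 sums was left out.

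The largest rises were those of genes without a description in the study's tables. PH02Gene13092 stood at 482 and 496 CPM in the undefined cells against 102 and 98 CPM elsewhere (2.08, SE 0.08, adjusted p = 6.9e-21), and PH02Gene24010 at 453 and 438 against 93.7 and 95.3 CPM (2.02, SE 0.08, adjusted p = 1.4e-20). PH02Gene36533 had the highest fold change among genes of at least 50 CPM, with 194 and 224 against 41.5 and 41.7 CPM (2.12, SE 0.09). The other 9 genes of the same rule rose by 1.90 to 2.06, among them PH02Gene40732 at 216 and 210 against 45.6 and 44.7 CPM and PH02Gene10599 at 142 and 141 against 31.9 and 28.6 CPM. None of these 12 genes carries a name that would place it in a pathway, and their levels in the 2 replicates differ far less than the groups do. PH02Gene43887 rose more (2.30, 50.7 and 47.2 against 8.8 and 8.3 CPM) but lay just under 50 CPM in replicate 2, and it was singled out after its values were seen. The rise was not particular to the undefined cells. Cells kept out for PH02Gene42801 alone had 58.7 and 48.2 CPM (-0.11, SE 0.19, adjusted p = 0.81). No difference was called from those kept out for PH02Gene08613 alone (0.72, adjusted p = 0.0504) or PH02Gene00514 alone (0.45, adjusted p = 0.36) either.

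Genes of protein synthesis were among the described genes that rose. PH02Gene13486, the exchange factor subunit EF1-beta that reloads elongation factor 1 with GTP, stood at 202 and 192 CPM against 94.9 and 87.9 (0.90, SE 0.09, adjusted p = 9.5e-11). PH02Gene02396, ribosomal protein L30, stood at 164 and 159 against 94.5 and 95.2 CPM (0.55, SE 0.09, adjusted p = 3.2e-06). With PH02Gene23345 it made both described ribosomal protein genes outside the conditions rise, 2 of 2 tested with a median of 0.87 beside 0.01 over all genes. The conditions chose cells rich in 2 other such genes, and 15.5% of all genes were higher. Against the cells kept out for PH02Gene42801 alone, PH02Gene02396 was lower (240 and 226 CPM there, -0.51, adjusted p = 0.020) and PH02Gene13486 was not called (-0.15, adjusted p = 0.62). Against those kept out for PH02Gene00514 alone, PH02Gene13486 was lower (-0.57, adjusted p = 0.013). The study's other orthologs of rice ground tissue markers did not move as 1 group. PH02Gene41070 rose (458 and 459 against 144 and 146 CPM, 1.45, SE 0.08, adjusted p = 3.1e-17) and so did PH02Gene36445 (144 and 157 against 51.4 and 55.8 CPM, 1.28, SE 0.09, adjusted p = 9.3e-14). PH02Gene17676, a ubiquitin-like gene, fell (90.5 and 69.1 against 132 and 157 CPM, -1.08, SE 0.11), and PH02Gene32823, a putative lipid-transfer protein, was at 28.8 and 35.7 against 25.0 and 33.2 CPM (-0.06, adjusted p = 0.79). After thinning PH02Gene41070 was seen in 75.7% and 78.7% of undefined cells against 33.6% and 36.4% of other cells, and before it in 88.6% and 92.9% against 49.5% and 55.6%. PH02Gene36445 was not called against cells kept out for PH02Gene42801 alone (-0.003, adjusted p = 0.995) or PH02Gene08613 alone (0.38, adjusted p = 0.31). It was lower than in cells kept out for PH02Gene00514 alone (-0.67, SE 0.22, adjusted p = 0.027).

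The list of PLT1 relatives held 3 tested genes, and all 3 were higher, beside 15.5% of all genes. With DESeq2 size factors 2 of the 3 were, without PH02Gene29833. PH02Gene27330, an ortholog of BBM, stood at 136 and 133 CPM against 70.7 and 65.4 (0.77, SE 0.09, adjusted p = 1.4e-08). The other 2 tested genes of the list were scarce. PH02Gene29833, the PLT2 ortholog, was at 5.68 and 3.07 against 1.66 and 2.03 CPM (0.99, adjusted p = 0.048), and PH02Gene22504, a second BBM ortholog, at 1.75 and 1.15 against 0.18 and 0.42 CPM (1.97, adjusted p = 0.026). Neither call held without the undefined cells of replicate 1, at adjusted p = 0.57 and 0.30, that of PH02Gene22504 was also lost without those of replicate 2 (adjusted p = 0.10), and that of PH02Gene29833 without the other cells of replicate 1 or 2 (adjusted p = 0.27 and 0.18). Other described genes that rose were PH02Gene43119, an AP2/EREBP-like factor (251 and 271 against 119 and 110 CPM, 0.98, SE 0.09), PH02Gene02229, a plasma membrane calcium pump (166 and 183 against 89.3 and 81.3 CPM, 0.82, SE 0.09), and PH02Gene27067, a WRKY factor (253 and 235 against 130 and 128 CPM, 0.71, SE 0.08).

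**Figure D2:**
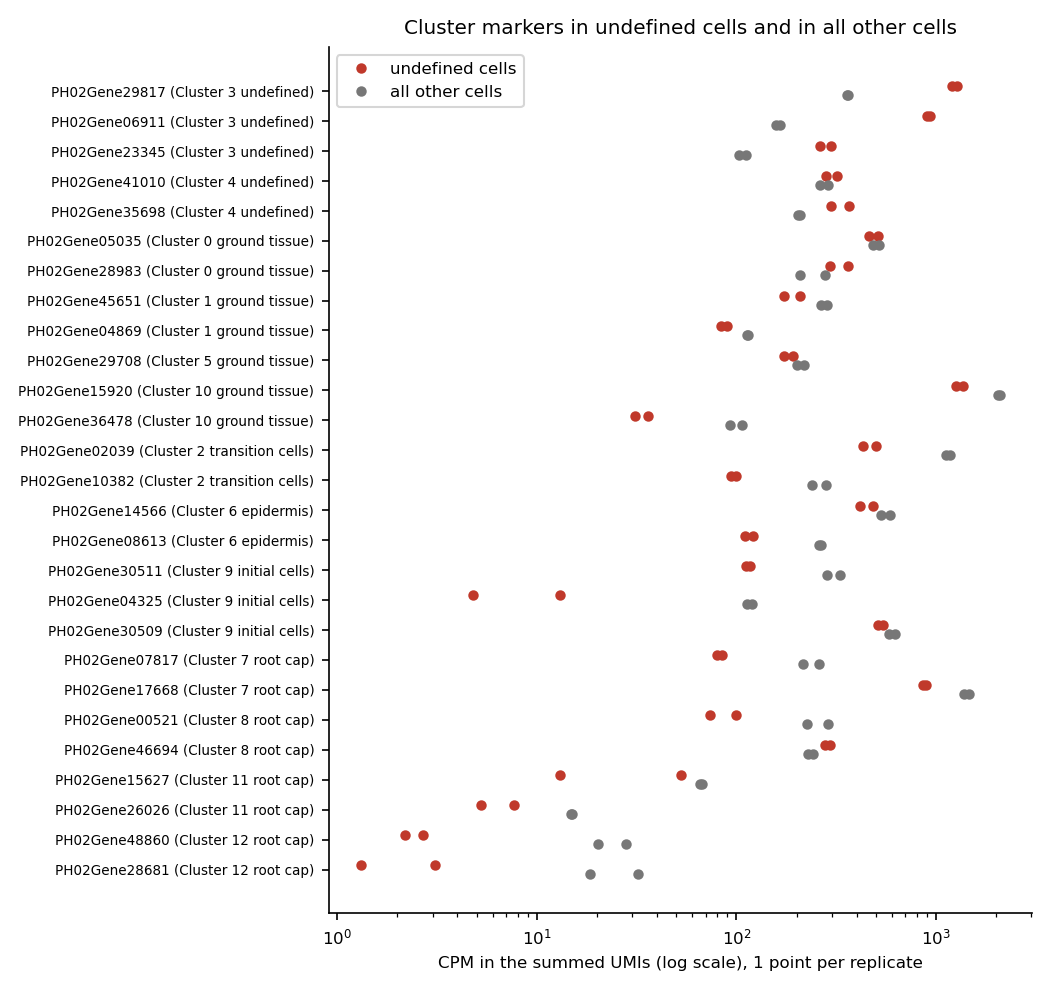
Points give the CPM (horizontal, log scale) of each cluster marker in the summed UMIs of the undefined cells (red) and of all other cells (grey), 1 point per replicate, with the genes on the vertical axis. The Cluster 3 markers lie to the right of the grey points, as PH02Gene23345 does at 263 and 299 against 103 and 112 CPM, and most markers of the other clusters lie to the left. The conditions themselves put PH02Gene06911 and PH02Gene29817 to the right and PH02Gene08613 and PH02Gene04325 to the left.

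Markers of the other clusters were lower in the undefined cells. Of 20 tested markers outside the conditions, 18 were lower, none was higher and 2 did not pass, with a median of -1.09. Over all genes 19.4% were lower and 15.5% higher. Scaled by library totals alone, 16 of the 20 markers were lower and 2 higher, which were PH02Gene28983 (0.43) and PH02Gene46694 (0.29). These markers were found on the same cells. The conditions also bar cells rich in an epidermal marker, an initial cell marker and a water channel gene. How far the falls follow from that choice was not tested. The root cap markers of Cluster 12 were nearly absent, PH02Gene28681 at 1.31 and 3.07 against 18.4 and 32.2 CPM and PH02Gene48860 at 2.18 and 2.69 against 20.4 and 28 CPM. PH02Gene00521, of the root cap Cluster 8, was at 73.8 and 99.1 against 225 and 287 CPM (-1.77, SE 0.12), while PH02Gene46694 of the same cluster was at 279 and 294 against 228 and 241 CPM (0.07, adjusted p = 0.52). PH02Gene02039 and PH02Gene10382, of the transition cells of Cluster 2, fell by 1.52 and 1.63 on the log2 scale, and PH02Gene30511, a phenylalanine ammonia-lyase that marks Cluster 9, also fell by 1.63. The other Cluster 9 marker outside the conditions, PH02Gene30509, fell far less, at 541 and 510 against 624 and 583 CPM (-0.41, SE 0.08). Ground tissue markers ranged from PH02Gene36478 of Cluster 10 at 31 and 36.1 against 93.2 and 106 CPM (-1.78) to PH02Gene28983, the chloroplast Clp protease subunit, at 362 and 296 against 278 and 209 CPM (0.22, adjusted p = 0.081, and 0.0031 with a replicate block). PH02Gene14566, the epidermal marker left outside the conditions, was at 486 and 415 against 529 and 588 CPM (-0.53, SE 0.08). Its median over single undefined cells was 49.7 and 147 CPM, and 16 of 263 and 25 of 267 cells held 50% of its UMIs. The sums do not say whether fewer cells held a transcript or each held fewer, but the shares after thinning do in part. PH02Gene02039 was seen in 52.9% and 50.6% of undefined cells against 64.6% and 68.4% of other cells, with a level of 499 and 433 against 1127 and 1169 CPM. The root cap marker PH02Gene17668 was seen in 83.3% and 91.4% against 95.5% and 96.0%, at 861 and 889 against 1387 and 1455 CPM. Unthinned, the shares were 62.0% and 64.4% against 73.1% and 78.2% for PH02Gene02039 and 93.2% and 97.4% against 98.3% and 98.7% for PH02Gene17668.

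A pair of undefined cells stood apart. In replicate 1, 1 undefined cell with 9377 UMIs held 77 of the 120 UMIs of the Cluster 11 root cap marker PH02Gene15627 (64.2%), and without it and 1 other cell the gene was at 18.6 in place of 52.4 CPM there, beside 13.1 CPM in replicate 2 and 65.3 and 67.1 CPM in the other cells. The other cell, with 18102 UMIs, held 131 of 147 UMIs of PH02Gene00688 (89.1%), whose level without both was 3.98 in place of 64.2 CPM. PH02Gene15627 was lower in the undefined cells with both cells kept (-1.28) and without them (-2.29). Whether these 2 cells are doublets was not tested.

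The largest falls of described genes outside the markers were spread over enzymes, copper proteins and regulators. PH02Gene43520, a nudix hydrolase, an enzyme class that cleaves nucleoside diphosphate derivatives, stood at 24.5 and 25.0 CPM against 265 and 242 CPM (-3.57, SE 0.12, adjusted p = 1.7e-22). After thinning it was seen in 5.3% and 9.0% of undefined cells against 33.6% and 32.6% of other cells, and before thinning in 11% and 16.9% against 43.1% and 44.6%. PH02Gene02152, a LURP-one-related protein, was at 22.3 and 25.4 against 143 and 137 CPM (-2.76, SE 0.12), and PH02Gene48561, a WRKY factor, at 10.1 and 16.9 against 73.0 and 86.7 CPM (-2.76, SE 0.17). PH02Gene30528, a carbonic anhydrase, an enzyme that interconverts carbon dioxide and bicarbonate, was at 48.1 and 56.8 against 256 and 255 CPM (-2.49, SE 0.10). PH02Gene08389, a chemocyanin, a small copper protein, was at 241 and 270 against 1023 and 1112 CPM (-2.27, SE 0.09). PH02Gene40249, a germacrene D synthase that would make a volatile sesquiterpene, was at 18.8 and 16.9 against 83.8 and 70.5 CPM (-2.33, SE 0.15).

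Gene families showed the same direction to different degrees, read beside a median of 0.01 and calls of 15.5% higher and 19.4% lower over all genes. All 3 tested aquaporin genes were lower (median -1.26), among them PH02Gene26718, another PIP1-1 gene, at 6.12 and 11.9 against 35.4 and 46.8 CPM, and PH02Gene03621, the tonoplast channel TIP1-1, at 582 and 562 against 903 and 891 CPM. The conditions bar cells rich in PH02Gene00514, itself an aquaporin gene of this list. How far the falls of the others follow from that choice was not tested. Class III peroxidases, which oxidize phenols in the cell wall, were lower in 14 of 16 tested genes and higher in none (median -0.92), with PH02Gene44580 at 54.2 and 55.3 against 253 and 260 CPM (-2.44). Of 9 phenylpropanoid genes, which build lignin precursors, 7 were lower and none higher (median -0.67), and PH02Gene12695, an ortholog of CCoAOMT1, was at 455 and 502 against 814 and 831 CPM. Glutathione S-transferases, which join glutathione to toxic compounds, were lower in 4 of 6 (median -0.76). Heat shock protein genes were lower in 4 of 6 (median -0.42), but with library totals alone in 2, with 1 higher.

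The AUX/IAA and Tify regulators of hormone signalling were lower in most tested members. Of 21 AUX/IAA genes, which repress auxin-responsive transcription until auxin triggers their breakdown, 16 were lower and 1 higher (median -1.0), with PH02Gene23239 at 17 and 20 against 54.9 and 64.7 CPM (-1.90). Of 16 Tify genes, the family of the jasmonate repressors, 12 were lower and 1 higher (median -0.69), with PH02Gene27185 at 52 and 86.8 against 197 and 257 CPM (-1.91), PH02Gene27184 at -1.61 and PH02Gene27186 at -1.41 on the log2 scale. NAC factors were lower in 13 of 15 and higher in 1 (median -0.41), WRKY factors lower in 10 of 17 and higher in 1 (median -0.44), and MYB factors lower in 6 of 11 and higher in 1 (median -0.44). With library totals alone, 8 NAC factors were lower and 2 higher, 8 WRKY factors lower and 3 higher, and 4 MYB factors lower and 1 higher. PH02Gene09524, described as MYB30, was at 42.4 and 37.3 against 132 and 138 CPM (-1.97). AP2/ERF factors went both ways, with 9 of 27 higher and 11 lower (median -0.08, turning to 0.14 with library totals alone). Of 3 tested MBF1 co-activators 2 were lower (median -0.36), or 1 with totals alone, and of the 2 organelle-encoded genes PH02Gene27896, the mitochondrial apocytochrome b, was higher (98.3 and 83.4 against 71.6 and 56.9 CPM, 0.28, adjusted p = 0.044), a call lost with DESeq2 size factors and without the undefined cells of replicate 1 or the other cells of replicate 2 (adjusted p = 0.42 and 0.45). Calcium-dependent kinases were lower in 9 of 13, but with totals alone in 5, with 3 higher.

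**Figure D3:**
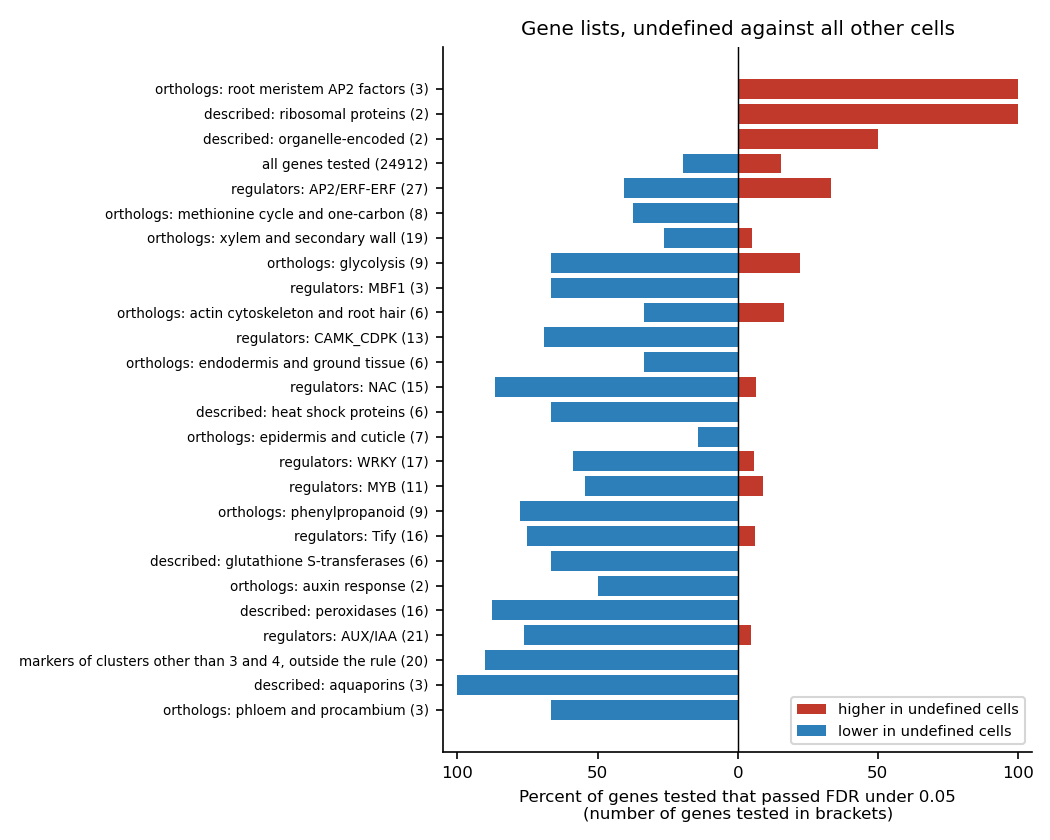
Bars give, for each list, the percent of its tested genes that were higher (red, to the right) or lower (blue, to the left) in the undefined cells at an adjusted p under 0.05, with the number of genes tested in brackets and all 24912 genes for scale. All 3 aquaporins and 14 of 16 peroxidases were lower, and the 2 ribosomal protein genes outside the conditions were higher. The conditions themselves use another aquaporin gene and 2 other ribosomal protein genes.

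The lists of orthologs of Arabidopsis tissue markers were short and are read beside the 34.9% of all genes called. Of 19 tested xylem and secondary wall genes 5 were lower and 1 higher (median -0.19, turning to 0.03 with library totals alone), with PH02Gene10076, a cysteine protease of dying xylem cells, at 60.7 and 36.1 against 101 and 116 CPM (-1.40). Of 6 endodermis genes 2 were lower, among them PH02Gene23181, a peroxidase 72 gene, at 39.8 and 49.2 against 83.7 and 83.7 CPM (-1.12). Of 7 epidermis genes 1 was lower and none higher, which turned to none lower and 1 higher with totals alone. Of 3 tested phloem genes 2, both orthologs of HCA2, were lower, each under 15 CPM in every sum. Glycolysis genes went both ways, with PH02Gene13004, an enolase, at 256 and 214 against 392.2 and 362.3 CPM (-0.90) and PH02Gene14126, another enolase ortholog, at 192 and 177 against 118 and 114 CPM (0.46). In all, 2 of the 9 glycolysis genes were higher and 6 lower, and with totals alone 2 were lower. Of 8 genes of the methionine cycle 3 were lower and none higher, which turned to 2 and 2 with totals alone.

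The cells most like them were those that failed a single condition, and 3 of these groups were compared in 1 fit of 15482 genes, in which every comparison shares the same undefined cells. The cells kept out for PH02Gene06911 alone (242 and 294) or PH02Gene29817 alone (41 and 40) were part of the fit but were not compared. The first of these comparisons asks how the undefined cells differ from the 188 cells (92 and 96) that met every condition but carried a UMI of the PLT1 ortholog. There 548 genes (3.54%) were higher and 489 (3.16%) lower, 6.7% in all. Each library mattered, since 557 genes were called without the undefined cells of replicate 1, 495 without those of replicate 2, and 391 and 526 without the PLT1 ortholog cells of replicate 1 and 2. PLT1 ortholog cells had a median of 8779.5 and 8891.5 UMIs, beside 8008 and 9168 in the undefined cells. The PLT1 ortholog itself was at 196 and 192 CPM in the PLT1 ortholog cells. After thinning, 60.9% and 65.6% of those cells still held a UMI of it. A cell without a UMI of this gene may therefore still have held its transcript. How many undefined cells did was not tested.

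PH02Gene23345 was lower in the undefined cells, at 263 and 299 CPM, than in the PLT1 ortholog cells, at 565.4 and 513.6 CPM (-0.92, SE 0.15, adjusted p = 0.00025). PH02Gene41010 went the other way, at 318 and 282 against 127 and 120 CPM (1.30, SE 0.22, adjusted p = 0.00029). After thinning it was seen in 16 of 92 and 23 of 96 PLT1 ortholog cells (17.4% and 24%, the latter with an interval of 15.8 to 33.7), beside 35.7% and 41.9% of undefined cells, and before thinning in 30.4% and 34.4%. PH02Gene35698 was at 298 and 367 against 334 and 433 CPM, a difference of -0.20 (SE 0.16, adjusted p = 0.53). The epidermal marker PH02Gene14566 was at 486 and 415 against 111 and 162 CPM (1.73, SE 0.19, adjusted p = 1.4e-06), and PH02Gene02039 of Cluster 2 at 499 and 433 against 116 and 247 CPM (1.35, SE 0.23, adjusted p = 0.00038).

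For several genes no difference was called. PH02Gene41070 differed by -0.23 (SE 0.13, adjusted p = 0.32), the BBM ortholog PH02Gene27330 by -0.17 (SE 0.15, adjusted p = 0.57) and PH02Gene43520 by 0.11 (SE 0.38, adjusted p = 0.91). The PLT2 ortholog PH02Gene29833 was at 5.68 and 3.07 against 15 and 11.1 CPM (-1.57, SE 0.52, adjusted p = 0.068). PH02Gene45651 of Cluster 1 was at 208 and 174 against 295 and 229 CPM, with an adjusted p of 0.066, and of 0.034 with a replicate block. Of undescribed genes, PH02Gene00840 was higher in the undefined cells (122 and 124 against 12.7 and 19.1 CPM, 2.95, SE 0.31) and PH02Gene28217 too (149 and 160 against 43.8 and 33.2 CPM, 2.03, SE 0.30). PH02Gene35480 was lower, at 81.7 and 91.4 against 413 and 531 CPM (-2.44, SE 0.17), and PH02Gene13689, at 18.8 and 24.2 against 158 and 145 CPM (-2.79, SE 0.20).

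The 253 cells kept out for PH02Gene08613 alone (126 and 127) had the fewest genes called of the groups tested. There 99 genes (0.639%) were higher and 296 (1.91%) lower in the undefined cells, 2.55% in all, and scaled by library totals alone the split was 187 and 174. The count was 112 without the undefined cells of replicate 1, 128 without those of replicate 2, and 151 and 269 without the cells kept out of replicate 2 and of replicate 1. PH02Gene14566, the other epidermal marker, was at 486 and 415 CPM in the undefined cells against 860 and 1161 CPM (-1.28, SE 0.17, adjusted p = 3.1e-05). PH02Gene19873, a blue copper protein, was at 1121 and 1033 against 2687 and 2757 CPM (-1.44, SE 0.19), and PH02Gene30528, the carbonic anhydrase, at 48.1 and 56.8 against 132 and 164 CPM (-1.60, SE 0.20). PH02Gene15574, a bHLH factor, was at 23.2 and 18.1 against 50.1 and 57.5 CPM (-1.50, SE 0.20). In the other direction PH02Gene00840 was at 122 and 124 against 21.4 and 35.9 CPM (1.98, SE 0.26), and PH02Gene49010 at 352 and 320 against 144 and 145 CPM (1.11, SE 0.15). All other cells together had a higher mean of PH02Gene00840, 278 CPM. Root cap and ground tissue markers mostly did not pass here, as for PH02Gene15920 (-0.06, SE 0.15) and PH02Gene07817 (0.13, SE 0.24), and PH02Gene35698 (0.13, SE 0.16) and PH02Gene41010 (-0.16, SE 0.19) did not either.

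The 67 cells kept out for the aquaporin gene PH02Gene00514 alone (32 and 35) had more genes called, with 1417 genes (9.15%) higher and 2016 (13%) lower in the undefined cells, 22.2% in all. Leaving out 1 sum at a time gave 1567 to 3114 called genes, the lowest without the cells kept out of replicate 1. PH02Gene36478, a Cluster 10 marker, was at 31 and 36.1 CPM in the undefined cells against 926 and 1372 CPM (-5.19, SE 0.21, adjusted p = 1.3e-17). The other Cluster 10 marker, PH02Gene15920, was at 1252 and 1362 against 5624 and 4625 CPM (-2.07, SE 0.15), and the root cap marker PH02Gene00521 at 73.8 and 99.1 against 499 and 805 CPM (-3.01, SE 0.28). Root cap markers did not move together here. PH02Gene07817, PH02Gene17668 and PH02Gene48860 were also lower (-1.19, -0.59 and -2.70). PH02Gene28681 (-1.66), PH02Gene46694 (0.25), PH02Gene15627 (1.56) and PH02Gene26026 (5.24 and 7.68 against 0 CPM) were not called. The second PIP1-1 gene, PH02Gene26718, was at 6.12 and 11.9 against 278 and 205 CPM (-4.81, SE 0.30). Both Cluster 4 markers were higher in the undefined cells than in these cells, PH02Gene35698 at 298 and 367 against 109 and 137 CPM (1.33, SE 0.23) and PH02Gene41010 at 318 and 282 against 29.8 and 131 CPM (1.80, SE 0.31). PH02Gene23345 was higher too (1.15, SE 0.23), whereas the L30 gene PH02Gene02396 was lower, at 164 and 159 against 377 and 282 CPM (-1.13, SE 0.16).

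**Figure D4:**
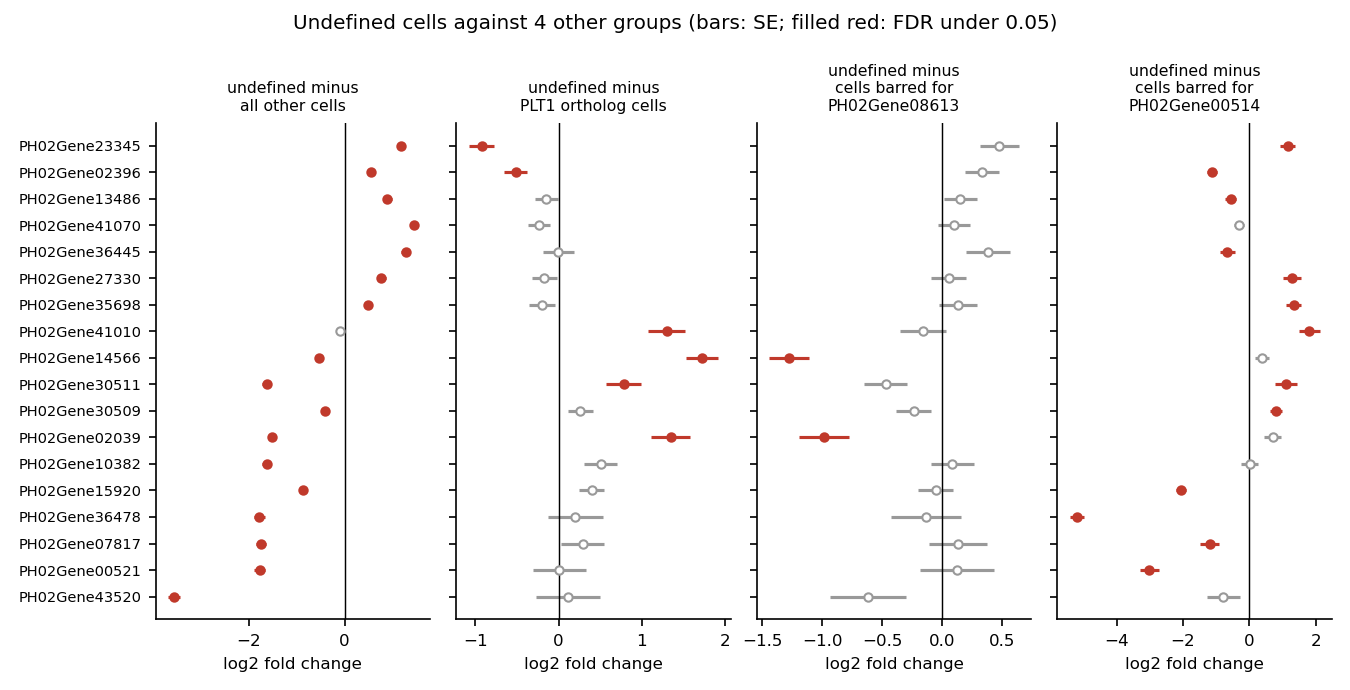
Log2 fold changes of 18 genes, undefined cells minus all other cells, PLT1 ortholog cells, cells kept out for PH02Gene08613 and cells kept out for PH02Gene00514, 1 panel each with its own horizontal scale, with bars for the standard error and filled red points at an adjusted p under 0.05. PH02Gene41010 lies at -0.10, 1.30, -0.16 and 1.80 from left to right, and the panels share the same undefined cells.

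Genes per cell also differed at equal depth. Thinned to 4000 UMIs, the undefined cells had a median of 2236 and 2250 genes, against 2036 and 2043 in all other cells. PLT1 ortholog cells had 2274.5 and 2220.5, cells kept out for PH02Gene08613 had 2206.5 and 2163, and cells that failed 2 or more conditions had 2014 and 2023. The undefined cells and the PLT1 ortholog cells exchanged their order between replicates, while both lay above the cells failing 2 or more conditions in each. The 100 genes with most UMIs took 18.7% and 18.9% of UMIs in the undefined cells and 20.5% and 20.8% in all other cells. The part of this difference in the fold changes was not tested.

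**Figure D5:**
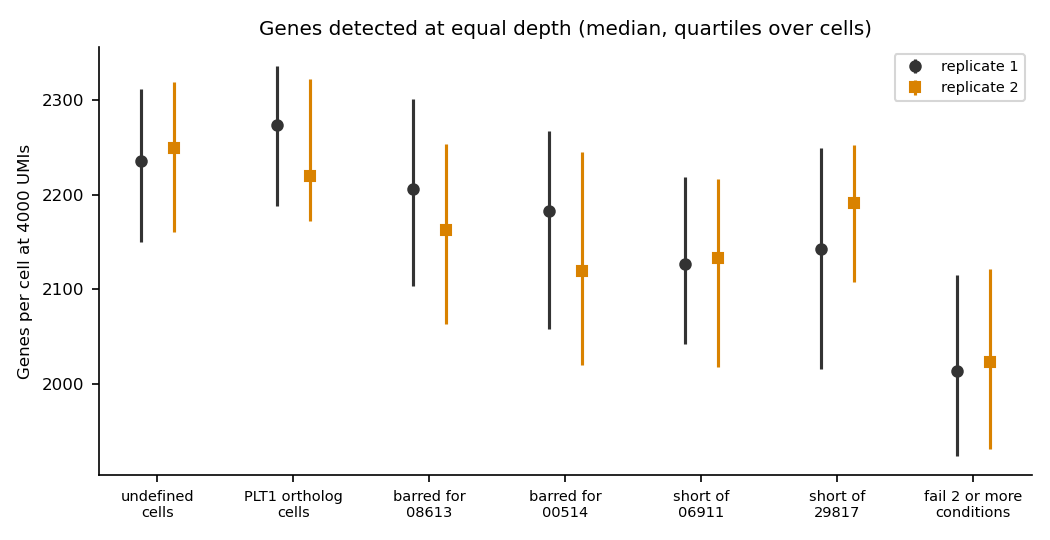
Points give the median number of genes per cell after thinning each cell to 4000 UMIs, with bars from the first to the third quartile over cells, for the undefined cells and 6 other groups in replicate 1 (dark circles) and replicate 2 (orange squares), on an axis that does not start at 0. The undefined cells lie at 2236 and 2250 and the cells that failed 2 or more conditions at 2014 and 2023.

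Within the undefined cells, those with a UMI of PH02Gene35698 or PH02Gene41010 after thinning (156 and 167 cells) were compared with those without (107 and 100 cells). Of 12164 genes, 312 (2.56%) were higher and 501 (4.12%) lower in cells with either transcript, 6.68% in all. The count rested on 1 sum, since 75 genes were called without the cells lacking both transcripts of replicate 1 and 474 without the cells of replicate 1 that had either, while the rest of the sums left out in turn gave up to 816. DESeq2 called 298 genes. PH02Gene33943, a NAC factor described as NAC 48-like, was lower in cells with either transcript, at 50.4 and 63.8 against 154 and 158 CPM (-1.46, SE 0.17, adjusted p = 4e-05). The root cap marker PH02Gene00521 was at 50.4 and 68.6 against 104 and 151 CPM (-1.10, SE 0.20, adjusted p = 0.0015). PH02Gene46694, of the same cluster, went the other way without being called (323 and 300 against 222 and 284 CPM, 0.27, adjusted p = 0.26). The root cap markers PH02Gene17668 (-0.47) and PH02Gene15627 (-2.96) were lower, the latter with most of its replicate 1 UMIs in 1 cell without either transcript. PH02Gene26026 was not called (-1.52, adjusted p = 0.13). PH02Gene07817, another root cap marker, was at 40.3 and 73.5 against 131 and 103 CPM (-1.03, adjusted p = 0.0051), but not called without the cells of replicate 1 on either side (adjusted p = 0.056 and 0.27).

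Among undescribed genes, PH02Gene20235 was higher in cells with either transcript (127 and 88.7 against 36.0 and 23.0 CPM, 1.82, SE 0.24), and PH02Gene18638 was lower (38.0 and 45.6 against 183 and 171 CPM, -2.09, SE 0.17). PH02Gene11801, a conserved gene of unknown function, was at 413 and 398 against 54.1 and 155 CPM (1.94, SE 0.23), which DESeq2 did not call (adjusted p = 0.065). PH02Gene22596 and PH02Gene28670 were lower (-1.85 and -1.83). Of 7 genes that were higher in the undefined cells than in all others and were followed within them, 2 passed. PH02Gene23345 was higher in cells with either transcript (314 and 337 against 198 and 234 CPM, 0.57, SE 0.13, adjusted p = 0.0096), and so was the BBM ortholog PH02Gene27330 (161 and 147 against 104 and 108 CPM, 0.52, SE 0.15, adjusted p = 0.040). The call of PH02Gene27330 was lost with DESeq2 (adjusted p = 0.19) and with any 1 sum left out (adjusted p from 0.078 to 0.30), and that of PH02Gene23345 without the cells of replicate 2 that had either transcript (adjusted p = 0.054) or those of replicate 1 that had neither (adjusted p = 0.24). The other 5 did not pass, with PH02Gene41070 at 443 and 440 against 477 and 491 CPM (-0.16, SE 0.11) and PH02Gene43887 at 57.4 and 45.0 against 42.0 and 51.2 CPM (0.10, SE 0.22).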

How the data were processed

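Single-cell RNA-seq libraries of basal root tip protoplasts were made in 2 replicates. According to the labels and methods, the authors processed the reads with Cell Ranger 5.0.1 and STAR (version not given in the sources used here) against the moso bamboo genome and deposited counts, whole UMI numbers per gene and barcode without normalization, for 50936 genes. From these deposited counts, cells with more than 500 genes and at least 4000 UMIs were taken; the mitochondrial filter and the clustering of the study were not used here. The members and gene lists were chosen with earlier results of these data known. Named genes were the markers, the genes of the conditions, the highest and lowest called genes of at least 50 CPM in both replicates of the higher group, and called list members with the largest changes; PH02Gene00688, PH02Gene43887, PH02Gene13486 and others followed across comparisons were added after their values were seen. UMIs were summed per group and replicate, and tested with edgeR 4.0.16 (R 4.3.3; quasi-likelihood test, TMM, filterByExpr, Benjamini-Hochberg, no replicate block), with genes of the conditions left out. The standard error was the fold change divided by the root of the F statistic. In 1 fit, the undefined cells were compared with cells failing a single condition, in groups of at least 20 cells per replicate; cells kept out for PH02Gene04325 numbered 7 and 0 and were not compared. For shares, each cell was thinned to 4000 UMIs without replacement (seed 11, NumPy 2.4.6, Python 3.11.15); intervals are Clopper-Pearson at 95% (SciPy 1.17.1). Tested on simulated data with 200 genes changed 2-fold, the fit found 100% against all other cells (24892 genes, 10 false calls), 78.5% against PLT1 ortholog cells (14726 genes, 8 false calls) and 77.5% within the undefined cells (12134 genes, 7 false calls). The simulation left scarce genes unchanged and drew each sum independently with a fixed spread. These rates therefore do not cover scarce genes or comparisons in which many genes differ. Sums with the same replicate number come from the same library, so the numbers pair them. The deviations of same-numbered sums correlated by -0.03 to 0.37 over 21 pairs of groups (median 0.03), with 4 pairs over 0.1. Each of the 4 included all other cells. In 1 of them the partner was the undefined cells (0.11), which share no UMIs with all other cells, and the test of that pair had no replicate block. In the rest the partner was a group that fails a single condition, which all other cells contain. The highest, 0.37, was with cells short of PH02Gene06911 and so shared UMIs. Alternatives were other minimums of UMIs and CPM, thinning before or after the choice, no condition on PH02Gene42801, other scaling and filters, DESeq2 1.42.0, a replicate block, and each sum left out.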

Additional observations from a re-analysis of the deposited data

Results flagged for a closer look

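Cells of at least 2500 but under 4000 UMIs lay outside every comparison because of the depth minimum, and some of them also met all 6 conditions. These were 26 cells (3.64% of that depth range) in replicate 1 and 22 cells (3.77%) in replicate 2. At such depth 400 CPM is reached with few UMIs, so the conditions are a coarser choice there. PH02Gene23345, which the conditions do not use, was at 293 and 190 CPM in these shallower cells and at 84.6 and 82.8 CPM in the rest of that range, and PH02Gene41070 was at 372 and 582 against 131 and 142 CPM. No test was made on these cells.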

How the results depend on the processing

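The numbers of undefined cells ranged from 196 to 355 in replicate 1 and from 217 to 363 in replicate 2 under the other minimums and conditions. Called genes against all other cells numbered 5720 when cells were thinned before the choice, 5493 when thinned after it, 5657 with DESeq2, 9741 with library totals alone (chosen after seeing the data) and 6282 to 6757 with a sum left out. Leaving out sums gave 391 to 557 against PLT1 ortholog cells, 112 to 269 against cells kept out for PH02Gene08613, 1567 to 3114 against cells kept out for PH02Gene00514 and 75 to 816 within the undefined cells, where DESeq2 called 298. DESeq2 called 582 genes against cells kept out for PH02Gene08613, and 958 higher and 2500 lower against cells kept out for PH02Gene00514. With a replicate block the counts were 9005, 1182, 560, 3524 and 938 in the order of the report. The block made PH02Gene43887 (0.72, adjusted p = 0.04) pass against cells kept out for PH02Gene08613 and PH02Gene02039 (0.71, adjusted p = 0.036) against those kept out for PH02Gene00514, and changed no other call of a named gene beyond those given in the report. Listed genes called numbered 172, and 141 to 180 under the alternatives. Unthinned, the mean shares of undefined cells were 76.2% for PH02Gene23345, 55.3% for PH02Gene35698 and 50.3% for PH02Gene41010. PH02Gene21429, a xylem ortholog, moved from -1.63 to 0.038 against all other cells without the condition on PH02Gene42801, and PH02Gene32823 from -1.14 to between -1.72 and 0.011 against cells kept out for PH02Gene00514 when a sum of either was left out; the cause was not tested. Of 2948 alternative values of the 207 called fold changes, 2809 kept direction and call, 137 kept direction only, and 77 of these left out a sum. Where a group was left with 1 sum, that sum was assumed to vary like the others. Calls below about 10 CPM rest on few UMIs. The comparison with cells kept out for PH02Gene04325 was not run, since replicate 2 had none.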
